A study of Mus musculus with 50 samples.

Results

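The genes described here are 35 genes of microglia and other phagocytes, measured in mouse hippocampus on Agilent 2-color arrays. The members were given as a list of symbols, and an Agilent probe that is not a control spot was assigned to a member when its RefSeq accession, or the symbol in its description, named that gene. All 35 members had at least 1 probe, 48 probes in all, out of 41174 probes and 34305 genes (named genes, and single probes where no name was found) on the array. Where a member had several probes, their log ratios were averaged.

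The study compared 5 male wild-type (WT) C57/BL6j mice with 5 male transgenic (TG) mice of the same background that over-express DCLK-short, a splice variant of doublecortin-like kinase 1, and the age of the mice and the promoter of the transgene are not given in the sources used here. Both hippocampi of a mouse were used whole, without sorting of cells, and RNA was amplified before labelling. Each of the 10 Agilent arrays received the RNA of 1 WT and 1 TG mouse, with WT in Cy3 on 5 arrays and TG in Cy3 on the other 5, and each mouse was on 2 arrays, once with each dye. Arrays are named here by their mice as labelled, so that WT6/TG1 is the array with WT mouse 6 and TG mouse 1. In addition, 2 members, Cd68 and Lgals1, were identified on the 1-color ABI arrays of 5 WT and 5 TG mice. By the labels, WT mouse 2 was there in place of WT mouse 6.

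Microglia are the resident macrophages of the brain. In healthy tissue they are known for surface receptors that sense purines, chemokines and lipids, among them P2ry12, Cx3cr1 and Gpr34, and for signalling through adaptor proteins such as Tyrobp, which carries the signal of Trem2. They take up debris and tagged synapses with the help of the complement protein C1q and digest it with lysosomal proteases such as cathepsin S. In phagocytes that respond to damage or myelin debris, genes such as Spp1, Lpl, Cst7 and Lgals3 are known to rise, and the transcription factors Spi1 (PU.1) and Irf8 keep the identity of the cells.

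Every direction on Agilent is that of the labels, and there is a doubt about it. For Spp1, Trem2 and Lgals1, which the study names, the Agilent directions of the study are the opposite of those that the labels give here. An exchange of the 5 arrays labelled WT in Cy3 with the 5 labelled TG in Cy3 would turn the sign of every log2 ratio below. It would leave its size, its error and its FDR on all arrays as they are. The exchange would also give each array another pair of mice, so that WT1/TG4 would become WT5/TG1. Signals of single mice, fits without a mouse and splits of arrays by mouse are therefore given as labelled, and would change with the exchange. Over all 34305 genes, both channels of the same mouse had a median correlation of 0.13 as labelled and of 0.18 after the exchange (10 mice, deviations from the mean of each dye), with a range over mice of -0.22 to 0.75 and of -0.16 to 0.75, so this measure did not separate the assignments. Dclk1 itself, with 4 probes, had a log2 ratio of TG over WT of -0.07 ± 0.032 (SE, n = 10 arrays; FDR = 0.272), between -0.26 and 0.05 on single arrays. Whether any of these probes lies in the transgene was not checked, so the value shows neither its expression nor which labels hold. On ABI, a sample is 1 array, so the doubt about pairs does not apply.

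The median of the raw signal over an array was between 109 and 169 in Cy3 and between 77.9 and 165 in Cy5, and between 80.3% and 88.5% of the spots were well above background in both channels. After normalization, the log2 ratios of all genes had the largest SD on both arrays of TG4. It was 0.27 on WT1/TG4 and 0.34 on WT3/TG4, against 0.13 to 0.22 on the other arrays. Of the 48 probes of the members, 45 were brighter than 95% of the negative control spots on each of the 10 arrays, in Cy3 and in Cy5. The exceptions were 2 of 3 probes of Ptprc (7 and 9 arrays) and 1 of 2 probes of Cybb (9 arrays). No spot of a member was saturated, and the single probe of Cst7 was well above background on 2 arrays by the stricter call of the scanner software. The hippocampus thus gave a measured signal for all 35 members. In RNA of whole tissue, fewer microglia and less of an RNA per cell cannot be told apart.

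Of the 35 members, 7 were called (FDR of 0.1 or less by limma, adjusted over all genes), which is 20% against 8.24% of all 34305 genes. Lower in TG as labelled were 6 members, Gpr34, Spp1, Ctss, P2ry12, Cd53 and Itgam (17.1%, against 4.17% of all genes). Higher was 1 member, Tmem119 (2.86%, against 4.08%). After the exchange these would be 6 higher members (17.1%, against 4.17%) and 1 lower member (2.86%, against 4.08%). The median log2 ratio of the 35 members was -0.02, against 0.00345 over all genes, and single members lay between -0.43 and 0.28. The fit takes the 10 arrays as independent, although each mouse is on 2 of them. With 1 value per mouse (5 WT, 5 TG), 0 of 35 members were called by limma, against 29 of all genes (0.0845%). An unadjusted p below 0.05 was found for 6 members, and for 2813 of all 34305 genes. The members' calls therefore hold for the spread of ratios between arrays, and were not found at the same FDR with 1 value per mouse. That value averages single channels, so differences between arrays that cancel in a ratio stay in its error. For Tmem119 the SE was 0.034 over arrays and 0.176 with 1 value per mouse. The p of that fit therefore does not measure the spread between mice alone.

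**Figure D1:**
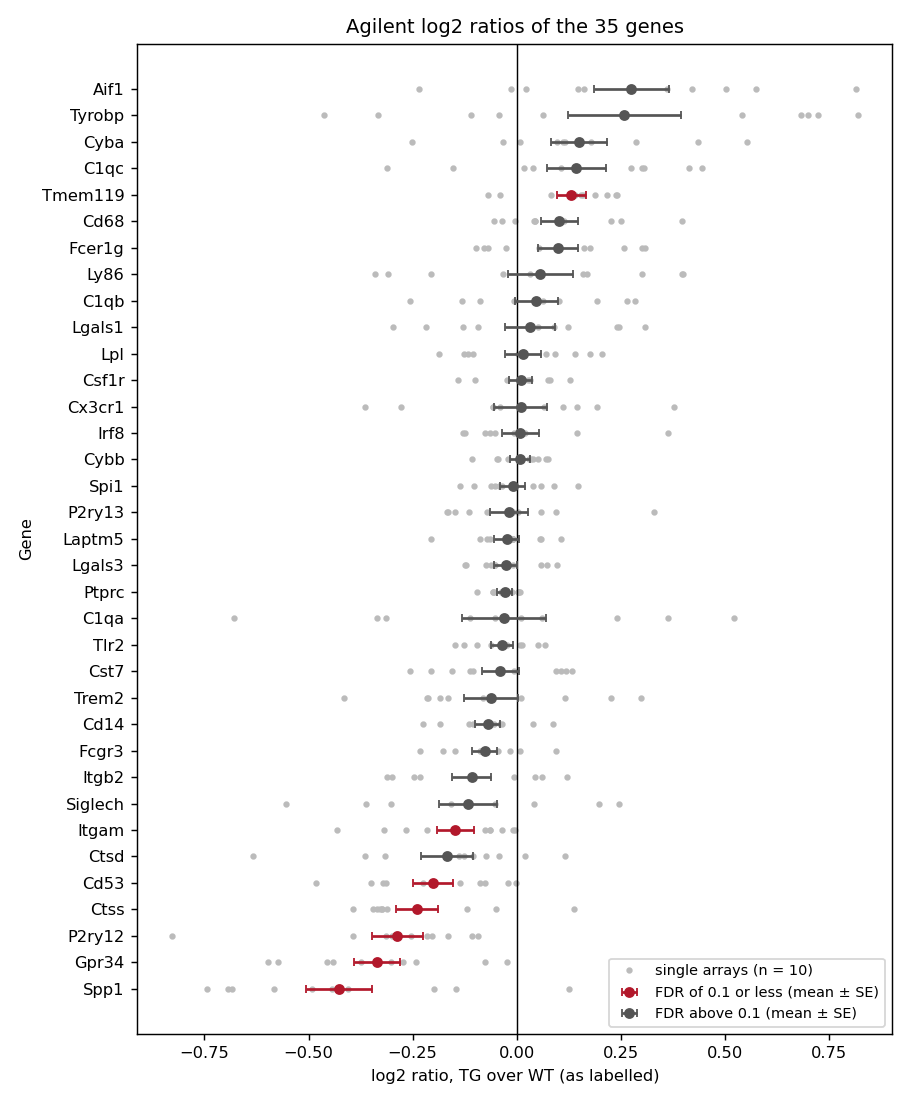
Log2 ratio of TG over WT as labelled (horizontal axis) of each of the 35 genes (vertical axis, ordered by ratio), with the mean ± SE in red for an FDR of 0.1 or less and in dark grey otherwise, and the 10 single arrays as light grey points. The red genes Spp1, Gpr34, P2ry12, Ctss, Cd53 and Itgam are below 0, Tmem119 is above 0, and Aif1 and Tyrobp lie farthest to the right with wide spreads.

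The members that were called as lower include 3 for which the promoter table of RefSeq (build GRCm38.p6) holds a match to GAGGAAGT, or to its reverse complement ACTTCCTC, letters that the transcription factor PU.1 is known to bind. Their sequences are shown because the gene of PU.1 is itself a member and these 3 genes were called in the same direction. Each runs from 130 bases before the start of the gene to 14 bases after it, 5′ to 3′ on the strand of the gene, with the match in capitals: Spp1 at chr5:104434981-104435124 (plus strand), Ctss at chr3:95526656-95526799 (plus strand) and Cd53 at chr3:106790136-106790279 (minus strand).
Spp1: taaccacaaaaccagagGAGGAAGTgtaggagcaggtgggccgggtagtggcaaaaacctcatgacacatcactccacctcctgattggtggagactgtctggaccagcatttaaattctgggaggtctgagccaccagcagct
Ctss: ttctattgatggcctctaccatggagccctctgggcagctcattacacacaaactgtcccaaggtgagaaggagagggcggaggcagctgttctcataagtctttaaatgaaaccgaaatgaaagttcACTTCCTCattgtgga
Cd53: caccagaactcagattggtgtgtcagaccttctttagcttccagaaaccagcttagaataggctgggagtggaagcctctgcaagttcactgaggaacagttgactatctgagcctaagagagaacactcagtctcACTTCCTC
In Spp1 the match begins at base -113 from the start, in Ctss it spans the start from base -2, and in Cd53 it begins at base 7 of the transcript. The table holds 25 of the 35 members, and a window of 300 bases with a match was found for 4 of these 25 (Spp1, Ctss, Cd53 and C1qc), against 3.2% of all 32851 windows. The first counts genes with any matching window and the second counts windows, so they differ in unit. Csf1r, Tmem119, Gpr34, Tyrobp, C1qa, Cd14, Itgb2, Spi1, Lgals1 and Lpl are not among the 25. Of the other called members, the windows of P2ry12 and Itgam hold no match. Spp1, Fcgr3, Ptprc and Irf8 have 2 windows each in the table, and 1 of those of Spp1 holds the match. A match of letters is a description and not a site of binding, and Spi1, the gene of PU.1, had a log2 ratio of -0.01 ± 0.030 (FDR = 0.930).

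Among the surface receptors of homeostatic microglia, 2 of 7 members were called as lower and 1 as higher. Gpr34 encodes a receptor for lysophosphatidylserine. Its normalized signal was 194, 238, 243, 236 and 204 in WT mice 1, 3, 4, 5 and 6, and 191, 188, 170, 167 and 166 in TG mice 1 to 5. All 5 TG mice lay below all 5 WT mice, with TG1 and WT1 next to each other. On the 10 arrays the log2 ratio was between -0.60 and -0.02 with a median of -0.34, and it was negative on every array. The mean was -0.34 ± 0.056 (SE, n = 10; FDR = 0.0155), a change of -20.7% in TG as labelled and of 26.2% after the exchange. Gpr34 was called in each fit that left out 1 array or both arrays of 1 mouse, with log2 ratios between -0.39 and -0.29, and was not called with 1 value per mouse (FDR = 0.212).

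P2ry12, the purine receptor by which microglial processes move towards ADP, had signals of 577, 580, 613, 563 and 560 in the WT mice and of 410, 495, 557, 538 and 391 in the TG mice. The WT mice lay close together, and the TG mice were below them, with TG1 and TG5 the lowest and TG3 next to WT6. The log2 ratio was negative on all 10 arrays, from -0.83 on WT6/TG1 to -0.09 on WT1/TG4, with a median of -0.24. Its mean was -0.29 ± 0.061 (FDR = 0.0325), and it was -0.23 without array WT6/TG1 (FDR = 0.0125). Scanner flags for uneven spots were set for this probe on 3 arrays, and without flagged spots the mean was -0.29 (FDR = 0.0946). With median centring in place of loess P2ry12 was not called (-0.20, FDR = 0.341). Without both arrays of WT3, of WT4 or of TG5 the FDR was 0.138, 0.132 and 0.122, with log2 ratios of -0.29, -0.30 and -0.27.

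P2ry13, the related ADP receptor, did not follow it. Its log2 ratio was -0.02 ± 0.046 (FDR = 0.905), between -0.17 and 0.33 on single arrays. The log2 ratio of P2ry12 was below that of P2ry13 on all 10 arrays, by 0.27 on average (SD 0.225, n = 10). The difference closest to 0 was -0.000271. An exact two-sided sign-flip test over arrays gave p = 0.00195, the smallest possible, and 0.00781 after adjustment over 4 pairs of members compared in this way. All 4 pairs were chosen after the values were seen, the adjustment covers only these pairs, and the arrays share mice. The tests on pairs therefore only describe these arrays.

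Tmem119, a membrane protein used as a marker of microglia, was the called member with a positive ratio. Its signal was 608, 492, 371, 338 and 574 in the WT mice and 442, 546, 420, 614 and 545 in the TG mice. The groups overlapped over nearly their whole range, and WT4 and WT5 were the lowest mice. On the arrays the log2 ratio lay between -0.07 and 0.24 with a median of 0.16, and it was negative only on the 2 arrays of WT6. The mean was 0.13 ± 0.034 (FDR = 0.0570), 9.54% higher in TG as labelled and -8.71% after the exchange. The call of Tmem119 was lost with median centring in place of loess (0.22, FDR = 0.292), in 8 of the 10 fits without both arrays of a mouse (all but WT6 and TG1; FDR between 0.106 and 0.212), and in 4 of the 10 fits without 1 array (WT3/TG5, WT4/TG2, WT5/TG1 and WT4/TG3; FDR between 0.107 and 0.132).

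The other 4 receptors were not called. Csf1r, the receptor for the growth factors that microglia need to survive, had a log2 ratio of 0.01 ± 0.028 (FDR = 0.923), with 0.11, 0.01 and -0.09 for its 3 probes. Cx3cr1, the fractalkine receptor, had 0.01 ± 0.063 (FDR = 0.969) and ranged from -0.36 to 0.38 on single arrays. Siglech, a lectin of microglia, had -0.12 ± 0.070 (FDR = 0.424), between -0.55 on WT3/TG4 and 0.25 on WT6/TG1. Over the arrays, Cx3cr1 and Siglech went up and down together (Pearson's r = 0.84 over 10 arrays, which share mice). With Cx3cr1 and Siglech, r was 0.26 and 0.41 for Gpr34, and -0.46 and -0.59 for P2ry12. Between Gpr34 and P2ry12, r was 0.01.

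**Figure D2:**
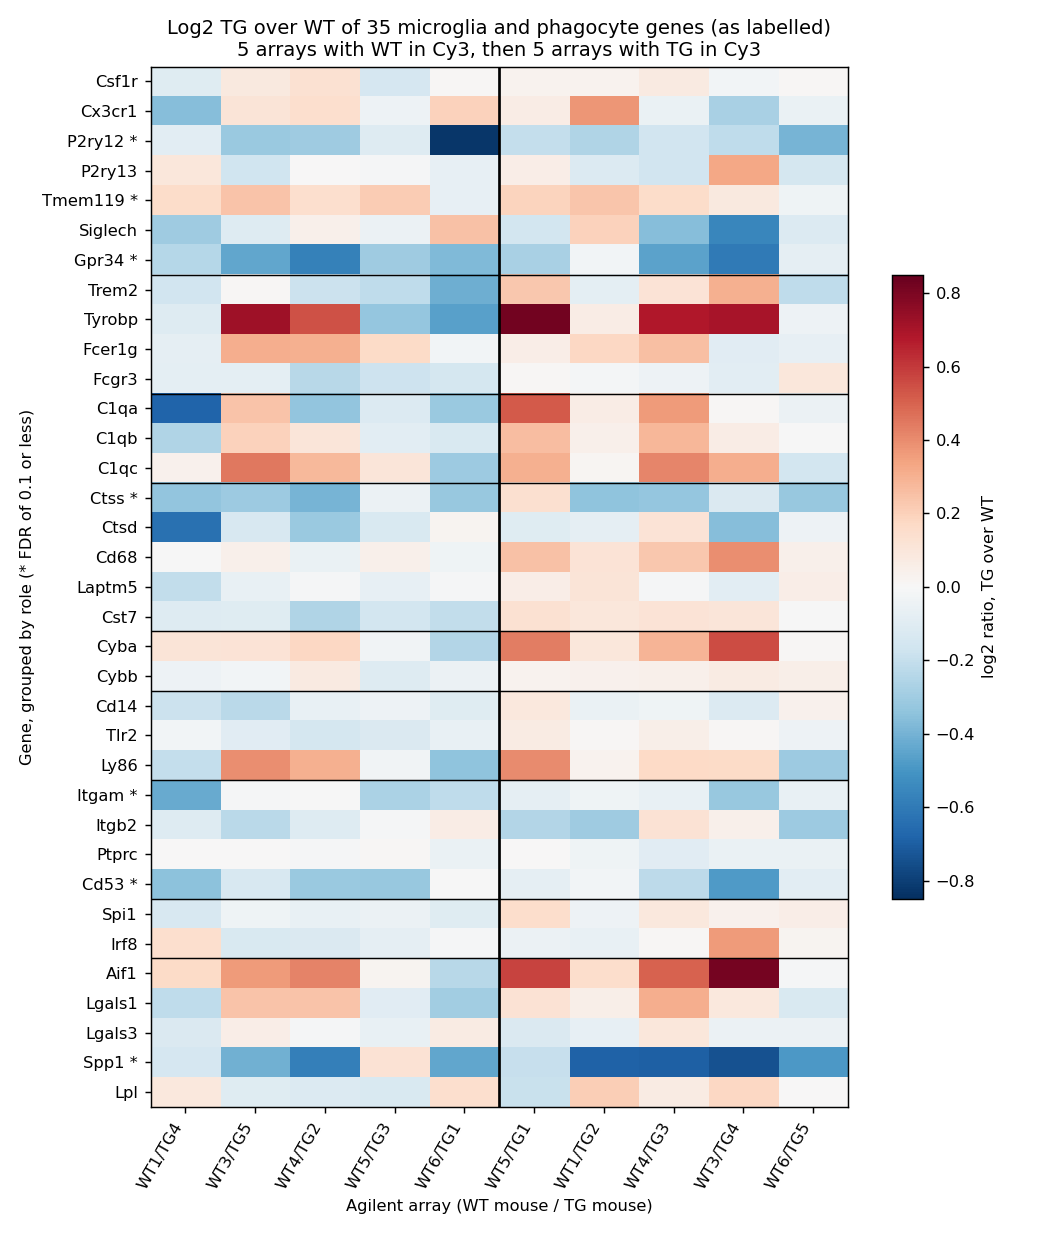
Log2 ratio of TG over WT as labelled (color) for the 35 genes (rows, grouped by role between lines, with a star for an FDR of 0.1 or less) on the 10 arrays (columns, WT in Cy3 left of the thick line and TG in Cy3 right of it). Rows of P2ry12, Gpr34, Cd53 and Itgam run from blue to nearly white, with no red, on all 10 arrays, whereas rows such as Tyrobp and Aif1 change from dark red to blue between arrays.

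Secreted and cytoplasmic proteins followed no common direction. Spp1, osteopontin, is a secreted protein that binds integrins and is known to rise in phagocytes around lesions. Its signal was 207, 258, 284, 199 and 199 in the WT mice and 167, 158, 195, 177 and 150 in the TG mice. The TG mice lay below the WT mice, with TG3 close to WT5 and WT6. The log2 ratio was negative on 9 of 10 arrays, between -0.74 on WT3/TG4 and 0.13 on WT5/TG3, with a median of -0.47. The mean was -0.43 ± 0.079 (FDR = 0.0209), a change of -25.6% in TG as labelled, which was the lowest ratio of the 35 members. After the exchange it would be the highest, at 34.4%. It was called in all 10 fits without 1 array, with ratios between -0.49 and -0.39, but not without both arrays of WT3 (-0.39, FDR = 0.112) or of WT4 (-0.37, FDR = 0.128). With 1 value per mouse the FDR was 0.296 as labelled and 0.392 after the exchange.

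Lgals1, galectin 1, a lectin also made by other cells than microglia, had signals of 677, 718, 582, 551 and 711 in the WT mice and of 523, 683, 670, 684 and 758 in the TG mice, which overlapped. Its log2 ratio was 0.03 ± 0.060 (FDR = 0.870), between -0.30 on WT6/TG1 and 0.31 on WT4/TG3. Lgals3, galectin 3, and Lpl, lipoprotein lipase, had -0.03 ± 0.027 (FDR = 0.703) and 0.02 ± 0.042 (FDR = 0.923). Aif1, which encodes the calcium-binding protein Iba1 and is the common microglial stain, missed the threshold. Its signal was 170, 121, 125, 141 and 187 in the WT mice and 169, 182, 171, 198 and 171 in the TG mice, so that WT3, WT4 and WT5 were the lowest. The log2 ratio was 0.28 ± 0.089 (FDR = 0.109), above 0 on 8 of 10 arrays, with a negative value on both arrays of WT6 and a highest value of 0.82 on WT3/TG4. In 7 of 12 other settings of the processing or the model Aif1 passed, with an FDR between 0.0530 and 0.0965. Among them were median centring (0.32) and both replicate blocks (FDR = 0.0609 and 0.0569), where a negative correlation narrows the error. The fits with a dye term and with channel terms, also among them, gave the same FDR (0.0940), so the settings are not independent. With 1 value per mouse the FDR of Aif1 was 0.559. Of its 2 probes, with ratios of 0.23 and 0.32, the second alone had an FDR of 0.0838. Without both arrays of WT6 the ratio of Aif1 was 0.38 (FDR = 0.0345), without array WT6/TG1 alone 0.33 (FDR = 0.0468), and without WT6/TG5 alone 0.31 (FDR = 0.0999).

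**Figure D3:**
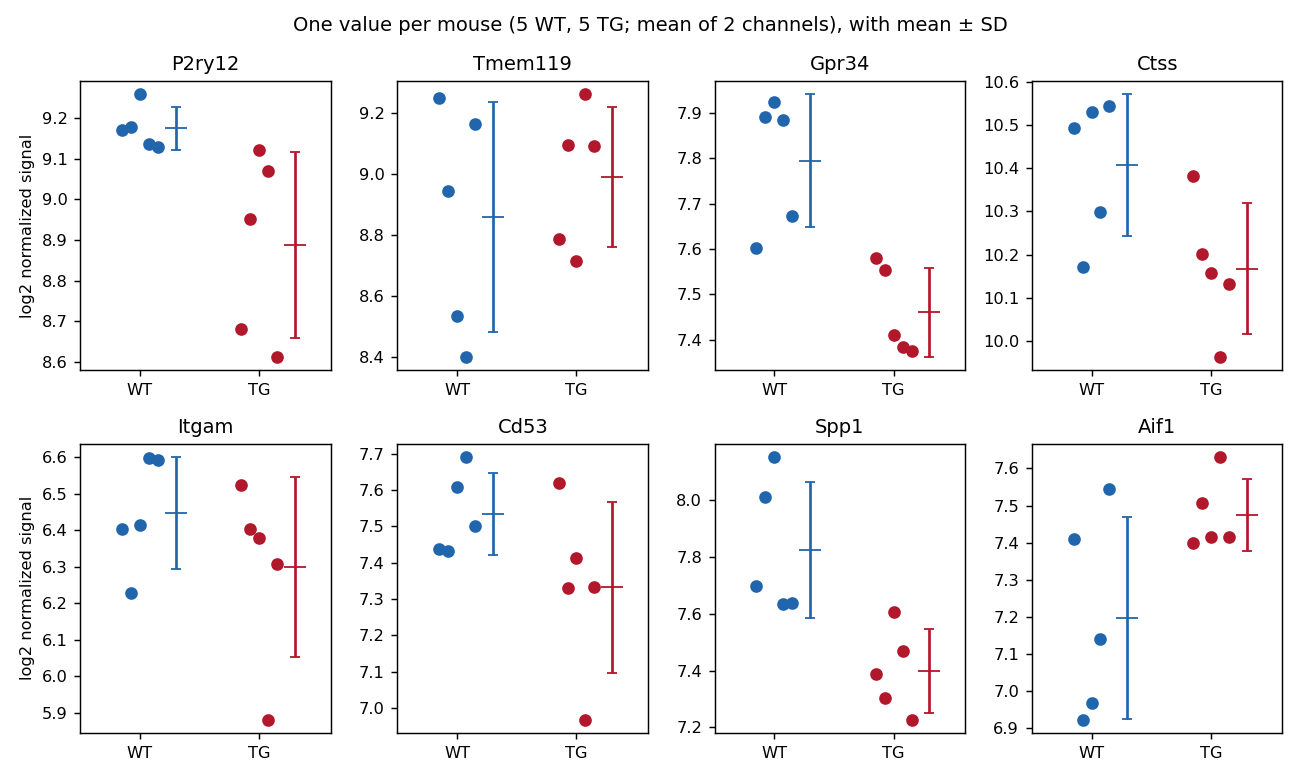
Normalized log2 signal (vertical axis) of each mouse as labelled, as the mean of both of its channels, for the 7 called genes and Aif1 in 5 WT mice (blue) and 5 TG mice (red), with the mean ± SD of each group beside the points. The groups do not overlap for P2ry12, Gpr34 and Spp1, although their nearest mice almost touch, and they overlap in the other panels.

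The values of the WT and TG mice did not overlap for these 3 members, P2ry12, Gpr34 and Spp1 (8.57%, against 2.13% of all genes). After the exchange of the labels this was the case for 1 member, Spp1 (2.86%, against 1.57%). For 4 members, P2ry12, Gpr34, Itgam and Cd53, no array went against the sign of the others, against 2.3% of all genes.

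Of the lysosomal and phagosomal members, 1 of 5 was called. Ctss encodes cathepsin S, a lysosomal protease of antigen-presenting cells. Its signal was 1441, 1154, 1478, 1260 and 1492 in the WT mice and 1335, 1178, 1142, 999 and 1123 in the TG mice. The groups overlapped, with WT3 and WT5 within the range of the TG mice. The log2 ratio was negative on 9 of 10 arrays, between -0.39 on WT4/TG2 and 0.14 on WT5/TG1, with a median of -0.32 and a mean of -0.24 ± 0.050 (FDR = 0.0317), or -15.3% in TG as labelled and 18.0% after the exchange. With median centring in place of loess the ratio was -0.13 and was not called (FDR = 0.656). Without both arrays of WT3, WT4, TG2 or TG5 it was not called either, with ratios between -0.25 and -0.21 and an FDR between 0.111 and 0.153.

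Ctsd, cathepsin D, had a log2 ratio of -0.17 ± 0.063 (FDR = 0.163), but its 2 probes differed, with 0.00225 and -0.34. Cd68, a glycoprotein of lysosomes and phagosomes, had 0.10 ± 0.044 (FDR = 0.223), and Laptm5, a lysosomal membrane protein, -0.02 ± 0.030 (FDR = 0.774). Cst7, cystatin F, had -0.04 ± 0.044 (FDR = 0.741). For Cst7 the arrays fell apart by dye: the 5 ratios with WT in Cy3 were between -0.26 and -0.11, and those with TG in Cy3 were between -0.01 and 0.13. With the dye orientation as a term, this term had an FDR of 0.1 or less for 5 members, Cst7 (FDR = 0.00469), Cd68, Spi1, Tlr2 and Fcgr3, which is 14.3% against 23.8% of all genes. As the dyes are balanced, the term does not move a member's mean ratio.

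The adhesion and surface proteins of leukocytes held 2 called members of 4, both lower as labelled. Cd53 is a tetraspanin of leukocytes. Its signal was 173, 173, 195, 207 and 181 in the WT mice and 197, 161, 171, 125 and 161 in the TG mice, with TG4 lowest and TG1 among the WT mice. The log2 ratio was below 0 on all 10 arrays, from -0.48 on WT3/TG4 to -0.00221 on WT6/TG1, with a median of -0.18 and a mean of -0.20 ± 0.048 (FDR = 0.0449). The call was lost without both arrays of WT3, WT4, WT5, TG3, TG4 or TG5 (ratios of -0.22 to -0.15, FDR of 0.105 to 0.181), without array WT4/TG2 (-0.19, FDR = 0.101) and with median centring (-0.17, FDR = 0.381).

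Itgam, the alpha chain of the complement receptor CR3 (CD11b), had signals of 84.7, 75.01, 85.3, 97.0 and 96.5 in the WT mice and of 92.0, 84.7, 83.3, 58.9 and 79.3 in the TG mice, which overlapped apart from the low TG4. These signals were low, and the probe was well above background on 9 of 10 arrays by the stricter call of the scanner software. The log2 ratio of Itgam was below 0 on all 10 arrays, from -0.43 on WT1/TG4 to -0.00404 on WT4/TG2, with a median of -0.07. The arrays with the lowest ratios included both arrays of TG4, which also had the widest spread over all genes. The mean was -0.15 ± 0.045 (FDR = 0.0880), and it was -0.09 without TG4 (FDR = 0.218). With the log ratio of the scanner software it was -0.45 and with median centring -0.18, and neither was called (FDR = 0.159 and 0.183). Itgam was not called in any of the 10 fits without a mouse (-0.18 to -0.09) and was called in 1 of the 10 fits without an array (that without WT1/TG2). Its partner Itgb2, the beta chain of the same receptor, had -0.11 ± 0.047 (FDR = 0.232). The ratios of both chains differed by 0.04 (SD 0.262, n = 10; exact p = 0.627, adjusted 0.627), with that of Itgam lower on 5 of 10 arrays. Ptprc, the leukocyte phosphatase CD45, had -0.03 ± 0.019 (FDR = 0.470), with probes near the negative controls.

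None of the receptors and adaptors that signal through ITAM motifs was called. Trem2 encodes a lipid receptor of microglia that signals through Tyrobp. Its signal was 201, 176, 175, 172 and 213 in the WT mice and 179, 174, 169, 198 and 175 in the TG mice. The groups overlapped, with WT1, WT6 and TG4 as the high mice. The log2 ratio was between -0.41 on WT6/TG1 and 0.30 on WT3/TG4 with a median of -0.12 and a mean of -0.06 ± 0.064 (FDR = 0.712; 95% interval -0.21 to 0.08), and its 2 probes gave -0.07 and -0.05. Tyrobp (DAP12) itself had 0.26 ± 0.136 (FDR = 0.343), between -0.46 on WT6/TG1 and 0.82 on WT5/TG1. Although they are partners, the ratio of Trem2 was lower than that of Tyrobp on 8 of 10 arrays, by 0.32 on average (SD 0.318, n = 10; exact p = 0.0137, adjusted 0.0273). As this pair was chosen after the values were seen and arrays share mice, the test only describes these arrays. Fcer1g, the adaptor of Fc receptors, had 0.10 ± 0.048 (FDR = 0.292), and Fcgr3, a low-affinity receptor for IgG, -0.08 ± 0.031 (FDR = 0.193), with 1 of its 2 probes called (-0.12, FDR = 0.0958).

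The 3 chains of C1q, which tags synapses and debris for uptake, were not called. C1qa had -0.03 ± 0.101 (FDR = 0.938), C1qb 0.05 ± 0.051 (FDR = 0.729) and C1qc 0.14 ± 0.071 (FDR = 0.305). Of the membrane subunits of the NADPH oxidase, by which phagocytes make superoxide, Cyba had 0.15 ± 0.066 (FDR = 0.244) and Cybb 0.00805 ± 0.023 (FDR = 0.925). The ratio of Cybb was below that of Cyba on 8 of 10 arrays, with a mean difference of -0.14 (SD 0.201, n = 10; exact p = 0.0547, adjusted 0.0729). The members for recognition of microbial patterns were Cd14, a co-receptor for lipopolysaccharide (-0.07 ± 0.031, FDR = 0.240), Tlr2, a receptor for lipopeptides (-0.04 ± 0.026, FDR = 0.545), and Ly86, the partner of the Toll-like receptor Cd180 (0.06 ± 0.078, FDR = 0.805). The transcription factor Irf8 had 0.00836 ± 0.044 (FDR = 0.960), next to Spi1 given above.

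Several uncalled members moved widely but together from array to array. Tyrobp and Aif1 had a Pearson's r of 0.91 over the 10 arrays, Aif1 and Cyba 0.97, and C1qc and Ly86 0.91. These correlations are descriptions, since arrays share mice and the genes were chosen by their values. Tyrobp was at 0.72, 0.54, 0.82, 0.68 and 0.70 on WT3/TG5, WT4/TG2, WT5/TG1, WT4/TG3 and WT3/TG4, against -0.11, -0.33, -0.46, 0.06 and -0.04 on the other 5 arrays, WT1/TG4, WT5/TG3, WT6/TG1, WT1/TG2 and WT6/TG5. All 4 arrays of WT3 and WT4 were in the first set and all 4 of WT1 and WT6 in the second. In single mice, Tyrobp had signals of 194 and 177 in WT3 and WT4 and of 293 and 310 in WT1 and WT6, whereas the TG mice were between 251 and 302. Without both arrays of WT6, C1qc (0.24, FDR = 0.0387) and Cyba (0.22, FDR = 0.0814) were called, as they were without array WT6/TG1 alone (FDR = 0.0988 and 0.0901). For the 7 called members r with Tyrobp was -0.50 for Gpr34, -0.41 for Spp1, -0.22 for Cd53, 0.24 for Ctss, 0.38 for P2ry12, 0.39 for Tmem119 and 0.43 for Itgam, and Tmem119 had an r of 0.67 with C1qc.

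**Figure D4:**
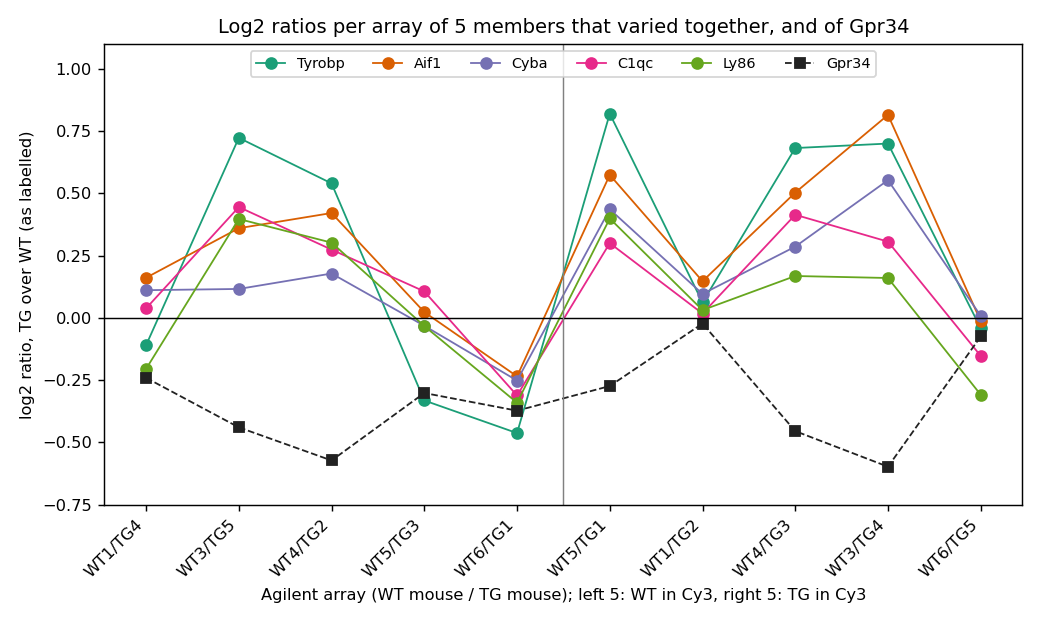
Log2 ratio of TG over WT as labelled (vertical axis) on each of the 10 arrays (horizontal axis, WT in Cy3 on the left and TG in Cy3 on the right) for Tyrobp, Aif1, Cyba, C1qc and Ly86 (solid lines) and Gpr34 (dashed line). The solid lines rise and fall together, with low points on WT6/TG1, while Gpr34 stays below 0 on all 10 arrays.

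The number of members on one side of 0 went with the dye orientation, with WT6/TG5 as the exception. The median of the members was negative on all 5 arrays with WT in Cy3 (19 to 28 members below 0) and positive on 4 of 5 arrays with TG in Cy3 (11 to 25 below 0). On WT5/TG3 and WT6/TG1 28 of 35 members were below 0, and on WT5/TG1 24 were above 0. The median of the members on an array lay between -0.11 and 0.08, whereas the median of all genes lay between -0.00528 and 0.00521.

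Removal of a mouse, with both of its arrays, changed the number of called members more than removal of 1 array, which leaves more arrays in the fit. The number of members was between 4 and 9 without 1 array, and between 1 and 9 without both arrays of a mouse. Over all genes it was between 1042 and 3143, and between 333 and 2995, so the count fell there too. Only 1 member, Gpr34, was called without WT3 or without WT4, 2 members without TG5, 4 without WT5, TG2, TG3 or TG4, and 9 without WT6. Of all genes, 381 were called without WT3 and 333 without WT4, against 2828 on all arrays, and 2995 without WT6. The number over all genes was 759 without WT5, 851 without TG5, 1209 without TG2, 1031 without TG3 and 1629 without TG4.

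**Figure D5:**
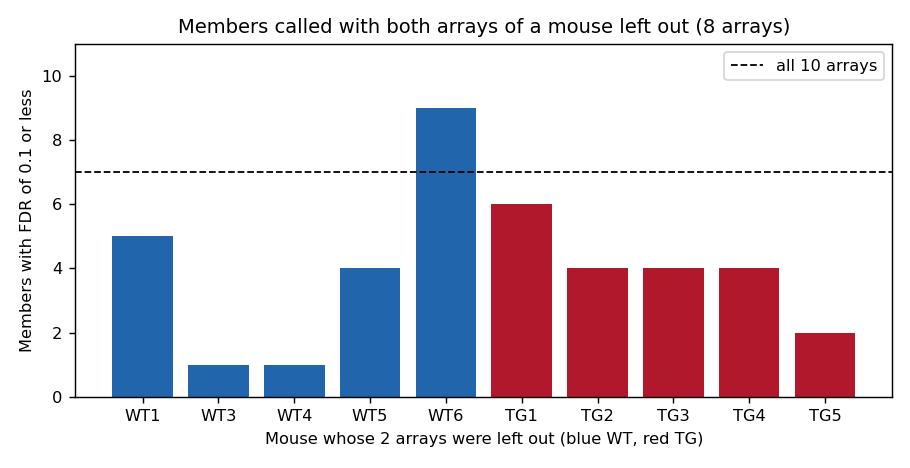
Number of the 35 genes with an FDR of 0.1 or less (vertical axis) when both arrays of the mouse on the horizontal axis were left out (blue WT, red TG, 8 arrays remain), with the number on all 10 arrays as a dashed line at 7. The bars are lowest, at 1, for WT3 and WT4 and highest, at 9, for WT6.

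A further list of 64 genes around these pathways (other complement components, Toll-like receptors, lysosomal proteins, integrins, engulfment receptors and cytokines) had 7 called genes (10.9%, against 8.24% of all genes), 4 lower (6.25%, against 4.17%) and 3 higher (4.69%, against 4.08%) as labelled. Lower were Slc2a5, the fructose transporter of microglia (-0.12 ± 0.023, FDR = 0.0231), C4b, a complement component also made by astrocytes (-0.25 ± 0.058, FDR = 0.0430), Mertk, an engulfment receptor (-0.18 ± 0.050, FDR = 0.0672), and Lamp2, a lysosomal membrane protein (-0.17 ± 0.050, FDR = 0.0842). Higher were Il34, a ligand of Csf1r made by neurons (0.18 ± 0.054, FDR = 0.0873), Olfml3, a secreted protein of microglia (0.10 ± 0.032, FDR = 0.0883), and Cybc1, a chaperone of the NADPH oxidase (0.14 ± 0.043, FDR = 0.0983). The median of the 64 ratios was -0.01, and 0 of them were called with 1 value per mouse. In that fit by limma 5 of the 64 had an unadjusted p below 0.05, as had 2813 of all 34305 genes.

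Markers of other myeloid cells were in part not above the negative controls. Of 12 measured markers of perivascular macrophages, monocytes and neutrophils 0 were called by limma (1 had an unadjusted p below 0.05, against 6544 of all 34305 genes), and 7 of them, Cd163, Ccr2, S100a8, Ngp, Camp, Elane and Retnlg, were not above the negative controls on all arrays. Their summed signal was 831 to 842 in the WT mice and 819 to 850 in the TG mice. Of 10 markers of T and B lymphocytes 0 were called (0 at an unadjusted p below 0.05), with a summed signal of 1330 to 1655 in WT and of 1287 to 1645 in TG mice. Of 4 measured markers of blood, Alas2 was called (-0.13 ± 0.039, FDR = 0.0948), and the sum was 2831 to 4354 in WT and 2758 to 3213 in TG mice.

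Markers of the other brain cells moved in both directions. Among 9 astrocyte markers Aldh1l1 (0.23 ± 0.045, FDR = 0.0248) and Aqp4 (0.30 ± 0.084, FDR = 0.0672) were called as higher, and the sums were 14615 to 16822 in WT and 14115 to 17497 in TG mice. Mbp, a myelin protein, was the 1 called of 8 oligodendrocyte markers (-0.51 ± 0.15, FDR = 0.0839), with sums of 11939 to 14865 and of 8007 to 12918. Gad1 was the 1 called of 9 neuron markers (-0.13 ± 0.041, FDR = 0.09996), with sums of 16436 to 17932 and of 10853 to 16806. Cldn5 was the 1 called of 8 markers of endothelium and pericytes (-0.25 ± 0.056, FDR = 0.0384), with sums of 1629 to 1745 and of 1549 to 1733. Of 6 choroid plexus and 7 meningeal markers 0 were called by limma (0 and 1 at an unadjusted p below 0.05), with sums of 697 to 1794 and 590 to 1824 for the first, and of 9324 to 12578 and 9696 to 12820 for the second. The part of these cells in the ratios of the members was not tested.

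On ABI, where the direction does not depend on the pairing of mice, Lgals1 had normalized log2 signals of 14.24, 14.34, 13.81, 13.80 and 13.94 in the 5 WT mice and of 14.44, 14.21, 14.40, 14.31 and 14.23 in the 5 TG mice. WT1 and WT2 lay within the range of the TG mice, and the other 3 WT mice lay below it. By the methods of the study, the ABI arrays were hybridized in batches on different days. Which array was in which batch is not given in the sources used here, so the values could not be given within batches. The difference of TG minus WT for Lgals1 was 0.29 ± 0.140 (SE, 5 against 5 arrays; FDR = 0.999). Cd68 was at 11.77, 12.70, 12.68, 12.40 and 12.87 in the WT mice and at 12.55, 12.30, 12.52, 12.65 and 12.97 in the TG mice, with WT1 below all other mice. Its difference was 0.12 ± 0.208 (FDR = 0.999), and -0.06 without WT1. By limma, 3 of the 33012 ABI probes were called, 0 of them for a member. An unadjusted p below 0.05 was found for 0 of both members, and for 1376 of all ABI probes. The same genes were uncalled on Agilent, where the ratios as labelled were 0.03 for Lgals1 and 0.10 for Cd68. By the labels, WT2 was on ABI and not on Agilent, and WT6 was on Agilent and not on ABI.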

How the data were processed

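Hippocampal RNA of WT and TG mice was measured on 5 array platforms. The authors deposited Agilent scanner output in which, per the file headers, spots carry a mean and a median pixel intensity, neither background corrected nor normalized, while the deposited log10 ratio was processed by the scanner software. The ABI intensities as deposited were not normalized. The 80 per-sample Illumina columns match no label, and the samples of the remaining platforms were not analysed here.

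Agilent mean intensities were normalized by loess within arrays (control spots weight 0, no filter), turned to TG over WT as labelled, averaged per gene (22214 probes named by accession, 726, 627 and 929 by a current, older or unmatched symbol in the description, 16678 left as single probes) and fitted with an intercept in limma 3.58.1 (R 4.3.3), with Benjamini and Hochberg adjustment over all 34305 genes. Normalized signals are channels after loess and Aquantile, averaged per mouse, so they also hold differences between arrays that cancel in a ratio. ABI intensities were normalized with vsn, programmed here, and fitted with the genotype. SE are moderated. The number of arrays limits the precision. All members were named, with full values for called members and for Trem2, Spp1 and Lgals1, which the study names; of the other lists, genes with an FDR of 0.1 or less were named. Members and lists were chosen with earlier results of these data known. Aif1, Tyrobp, the co-varying members, the pairs of members (exact sign-flip test) and the comparison of both channels of a mouse after exchange were added after the data were seen. Promoter sequences are from RefSeq (GRCm38.p6). Scripts were tested on simulated data. Alternatives covered background correction, normalization, spot filters, dye, model, block, threshold and leaving out arrays or mice.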

Additional observations from a re-analysis of the deposited data

Results flagged for a closer look

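In a group of 5 arrays of the same dye orientation, a member was noted when 1 array lay apart from the other 4 by more than 0.71 of the whole range (Dixon's 95% limit, which chance passes in about 1 in 20 groups). Of 70 groups (35 members and 2 orientations) this was the case in 4. With WT in Cy3, Ctss was at -0.0503 on WT5/TG3, whereas the other 4 arrays were between -0.39 and -0.31. With TG in Cy3, Cst7 was at -0.00644 on WT6/TG5, against 0.09 to 0.13 on the others. Itgam was at -0.32 on WT3/TG4, against -0.07 to -0.03, and Irf8 was at 0.36 on the same array, against -0.06 to 0.02. On that array the ratios of all genes spread most (SD 0.34). No member on ABI was noted by this measure.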

How the results depend on the processing

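The number of called members was 7 on all arrays and changed by more than 1.5 times with median centring in place of loess (3, Gpr34, Spp1 and Aif1) and with 1 value per mouse (0). Over all genes the number moved too, from 2828 to 1154 and 29 in these settings, 3494 with the dye term, 5193 with the WT mouse and 4222 with the TG mouse as a block. The number of members was 4 to 9 without 1 array and 1 to 9 without both arrays of a mouse, against 1042 to 3143 and 333 to 2995 of all genes. It was 10 with dye or channel terms. For the 64 pathway genes, the number was 7 in the main fit, 2 with median centring, 4 with median pixel signals, 3 with the log ratio of the scanner software, 0 with 1 value per mouse, 2 at an FDR of 0.05, 2 to 6 without 1 array and 0 to 5 without a mouse. With the mouse as a replicate block, the numbers were 10 members and 11 pathway genes (WT mouse, consensus correlation -0.25) and 8 and 10 (TG mouse, -0.16). Both correlations were negative, which narrows the error of the mean, so these blocks do not correct for the mice that arrays share. A block by mouse number on ABI called 0 of both members. With 1 value per mouse, 0 members were called as labelled, after the exchange, without normalization between arrays and without each mouse in turn. The sign of P2ry13 (0.0336), C1qa (0.0497), Cybb (-0.0740), Irf8 (-0.0271) and Lgals3 (0.0310) turned with median centring, and that of Cybb (-0.0182) with only those probes that were above the negative controls. The cause was not tested. When arrays or mice were left out, the sign turned for 11 uncalled members on Agilent: the ratio was -0.0911 to 0.0462 for C1qa, -0.0270 to 0.0103 for Spi1, -0.0530 to 0.0340 for Irf8, -0.0531 to 0.0924 for Cx3cr1, -0.0133 to 0.0279 for Csf1r, -0.0183 to 0.0581 for Lpl, -0.0293 to 0.0932 for Lgals1, -0.00449 to 0.0208 for Cybb, -0.0769 to 0.0158 for P2ry13, -0.116 to 0.00142 for Trem2 and -0.0422 to 0.00698 for Laptm5. On ABI, Cd68 was between -0.0623 and 0.212 without single mice. The signs of the 7 called members were kept in all these settings, apart from the exchange of labels, which turns all signs.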
